A study of Mus musculus with 22 samples.

Results

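Livers of newborn mice given an AAV9 vector built to be silent in liver were compared with livers of mice given an AAV9 vector that expresses a reporter. The first vector, rAAV9.Syn1.ST3GAL5.miR122BS (the Syn1 vector), carries the human ST3GAL5 cDNA behind the neuronal Syn1 promoter, with binding sites for miR-122 in its transcript. The second, rAAV9.CB.EGFP (the CB.EGFP vector), carries EGFP behind the ubiquitous CB promoter. The comparison rests on all 8 libraries that the sample labels assign to these vectors, 4 per vector, of the 22 in the series. Every animal was a male WT C57BL/6 pup injected i.v. on postnatal day 1, and the labels place the collection of its liver 36 hours later. The series also holds 4 livers given PBS and 4 given empty capsids (AAV9.empty), whose levels are given here as the background, and livers of 2 further vectors with ST3GAL5 behind the CB promoter, 3 per vector. RNA was selected by its poly(A) tail, sequenced, and deposited as RSEM expected counts and TPM for 55291 genes. Litters are not given in the labels, so a p-value here reflects how these particular livers vary. The transcripts of the vectors themselves, human ST3GAL5 and EGFP, were not analysed here. The comparison thus holds no measure of silence or expression of either vector in these livers. By droplet digital PCR in livers of WT mice, the authors reported greatly reduced ST3GAL5 transgene expression with the Syn1 vector. The vectors differ in promoter, cDNA and miR-122 sites at once, and the parts these play cannot be told apart.

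AAV9 given by vein reaches the liver in large amounts. Hepatocytes take up the capsid and the vector genome enters their nuclei, where a ubiquitous promoter is read and a neuronal promoter is meant to stay quiet. miR-122 is the main microRNA of hepatocytes, and a transcript with its binding sites is degraded there. Immediate-early genes are switched on within minutes of a stimulus, without new protein synthesis, and code for transcription factors such as Fos, Jun and Egr1 and for proteins that shut the response down, such as Dusp1 and Zfp36. p53 is a transcription factor that answers DNA damage with genes of cell cycle arrest and cell death.

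The 8 libraries held 17164502 to 21387813 expected counts (median 18595124), and the 10 most abundant genes took 20.8% to 22.1% of each. Hepatocyte markers were high in all of them: Alb, which encodes albumin, stood at 25410 to 29140 TPM with the Syn1 vector and 33430 to 35180 TPM with the CB.EGFP vector (adjusted p = 0.213), and Hnf4a, a hepatocyte transcription factor, at 56.0 to 65.9 and 64.4 to 72.5 TPM. The mouse gene Syn1, whose promoter the first vector borrows, stayed between 0.244 and 0.927 CPM. Genes of neighbouring organs stood out in 4 of the libraries. Replicate 2 of the Syn1 vector held 2008 CPM of Cym, the milk-clotting enzyme of the newborn stomach, against 2.78 to 6.02 CPM in the other livers, and 17 of 19 stomach genes listed after this was seen were highest there. Replicate 2 of the CB.EGFP vector had 290.9 CPM summed over the pancreatic acinar genes against 11.8 to 46.0 in the other livers. Replicate 3 of both groups had skeletal muscle genes, 700 CPM with the Syn1 vector and 1010 CPM with the CB.EGFP vector, against 12.6 to 20.3 in the other 6. Counts below are therefore also given without these livers. Distances between livers, each over the 500 genes that differed most, overlapped: 1.55 to 2.23 log2 units between groups, 1.41 to 2.004 within the CB.EGFP group and 1.64 to 2.15 within the Syn1 group.

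Of 14528 genes tested, 48 differed between the vectors at an adjusted p of at most 0.05, which is 0.330%. Of these, 16 were higher with the Syn1 vector (0.110%) and 32 lower (0.220%), and the groups did not overlap for any of the 48. Of the 48, 12 also reached a 2-fold difference (0.0826%), 4 higher (0.0275%) and 8 lower (0.0551%). Groups that did not overlap were found for 1292 genes (8.89%), 573 higher (3.94%) and 719 lower (4.95%). At an unadjusted p under 0.05, 945 genes were higher (6.50%) and 1104 lower (7.60%). The median log2 fold change over all genes was −0.001, and the middle of the distribution ran from −0.13 to 0.13. On log2(TPM + 1) with limma the split was 10 higher and 35 lower, and 24 of the 48 genes were among these 45. The median over all genes was −0.07 in that setting, so its split is not like for like with that of edgeR. DESeq2 called 386 genes, 143 higher and 243 lower. Its counts for gene lists below have these larger totals as their background, and the edgeR shares do not apply to them. The count of 48 depended on the livers included. It was 22 without CB.EGFP replicate 1, 19 without CB.EGFP replicate 2, 29 without CB.EGFP replicate 3, 14 without CB.EGFP replicate 4, 14 without Syn1 replicate 1, 111 without Syn1 replicate 2 and 23 without Syn1 replicate 4. The count of 12 went to 7 without CB.EGFP replicate 3, 8 without CB.EGFP replicate 2, 6 without CB.EGFP replicate 4, 5 without Syn1 replicate 1, 20 without Syn1 replicate 2 and 21 without Syn1 replicate 3. With replicates 1 and 4 alone, the 4 livers in which no genes of other organs stood out, 4 genes passed, all lower and all over 2-fold: Fos, Zfp36, Rgs1 and Jun. Of the 48 genes, 11 passed in all 8 fits that each left out 1 liver, and none changed sign in any of them.

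**Figure D1:**
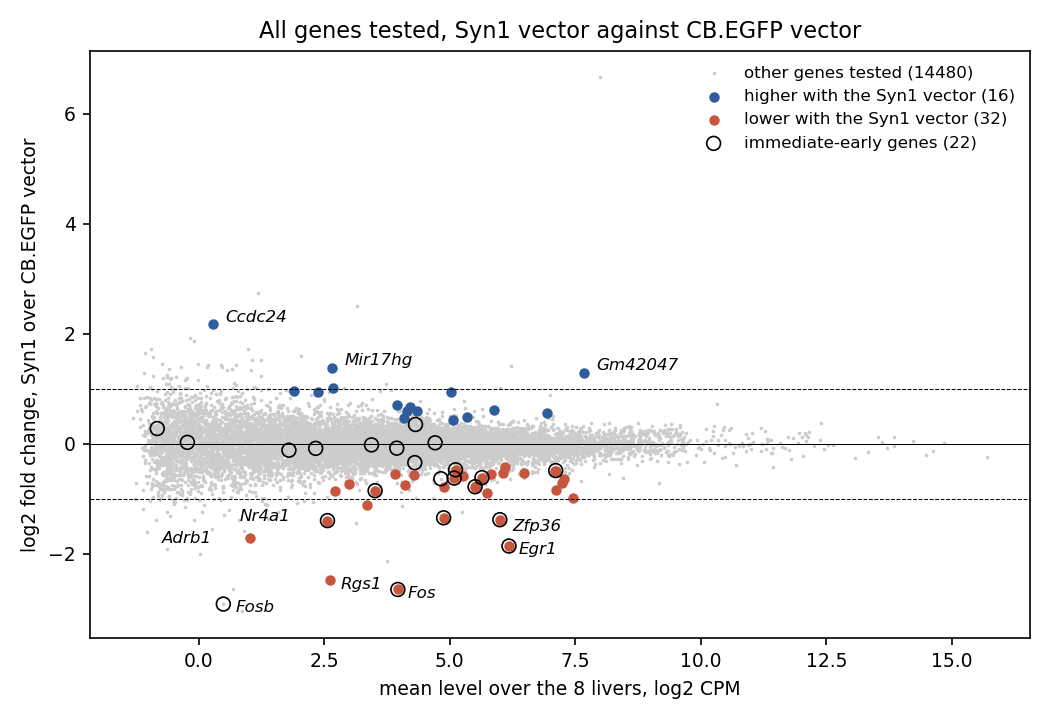
Each point is 1 of 14528 genes, with its mean level over the 8 livers in log2 CPM on the horizontal axis and its log2 fold change, Syn1 over CB.EGFP vector, on the vertical axis; dashed lines mark a 2-fold difference, blue and red points passed the adjusted p, and circles mark the 22 immediate-early genes. The lowest called point is Fos at −2.65, and Cym, the grey point at 6.66, did not pass and rests on 1 liver.

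Immediate-early genes were the list with the most members that fell. Of the 24 members listed, 22 were tested, 11 were lower with the Syn1 vector and 0 higher, against 0.220% and 0.110% of all genes, and the median of the 22 was −0.55 on the log2 scale against −0.001 over all genes. Summed over the 22 genes, the Syn1 livers held 428, 472, 508 and 458 CPM (counts scaled to library size by TMM) and the CB.EGFP livers 824, 762, 819 and 783 CPM. The PBS livers held 459, 400, 494 and 444 CPM. The sums with the Syn1 vector thus overlapped PBS, and those with the CB.EGFP vector all lay above it. The AAV9.empty livers were mixed, at 467, 477, 624 and 774 CPM. Gene by gene, the CB.EGFP livers lay wholly above the PBS livers for 14 of the 22 genes (6.17% of all genes) and the Syn1 livers for 4 (5.66%). The count of 11 was 7 without CB.EGFP replicate 1, 5 without CB.EGFP replicate 4, 6 without Syn1 replicate 1, 6 without Syn1 replicate 4, 5 without replicate 3 of both groups and 3 with replicates 1 and 4 alone.

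Fos, a subunit of the AP-1 transcription factor (chromosome 12, 85473890 to 85477273 in GRCm38), showed the largest difference of the genes that fell. It stood at 3.73, 3.91, 5.00 and 4.52 CPM with the Syn1 vector and at 26.1, 22.9, 30.9 and 27.9 CPM with the CB.EGFP vector, a log2 difference of −2.65 (SE 0.132, adjusted p = 1.54e-06). The PBS livers had 2.92 to 6.14 CPM. Both groups were tight, and no CB.EGFP liver came near the Syn1 or PBS livers. With empty capsids the level was 1.73 and 2.20 CPM in replicates 1 and 2 but 12.6 and 20.2 CPM in replicates 3 and 4, so livers without any vector genome also spread over much of this range. Replicate 3 of these held stomach genes as well, at a sum of 700 CPM against 105 to 114 CPM in the other 3, and their part in its Fos level was not tested. Fosb, its close relative, had 0.0993 to 0.693 CPM with the Syn1 vector and 0.866 to 4.20 CPM with the CB.EGFP vector, a log2 difference of −2.92 (95% interval −4.23 to −1.60) that did not pass (adjusted p = 0.0695).

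The Jun partners of Fos differed by less. Jun (chromosome 4, 95049034 to 95052222) had 15.8, 15.8, 17.8 and 16.9 CPM with the Syn1 vector against 53.7, 33.9, 39.3 and 41.6 CPM, a log2 difference of −1.35 (SE 0.124, adjusted p = 0.00049). Junb fell by 0.78 (adjusted p = 0.00465) and Jund by 0.49 (adjusted p = 0.0318) on the log2 scale. All 3 Jun genes and Fos were lower with the Syn1 vector. Jun was the only 1 of the 4 for which the Syn1 livers also lay wholly above the PBS livers, at 11.4 to 15.2 CPM. The AAV9.empty livers had 22.95, 18.57, 33.55 and 52.92 CPM of Jun. Jund shares 50.1% of its 31-base words with Gm11175 on the opposite strand, from which the unstranded libraries cannot tell it. Without CB.EGFP replicate 2, Jund had an adjusted p of 0.0991.

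Other transcription factors of the list were Egr1, a zinc finger protein, and Nr4a1, an orphan nuclear receptor. Egr1 had 15.8, 28.3, 42.7 and 38.2 CPM with the Syn1 vector and 120, 111, 135 and 87.6 CPM with the CB.EGFP vector, a log2 difference of −1.86 (SE 0.245, adjusted p = 0.00994). PBS livers had 26.5 to 47.5 CPM and overlapped the Syn1 livers. AAV9.empty livers had 46.9, 40.9, 77.6 and 128 CPM, the last within the CB.EGFP range. Nr4a1 had 2.47 to 4.27 CPM against 6.61 to 10.9 CPM (log2 fold change −1.40, SE 0.213, adjusted p = 0.0177), and without Syn1 replicate 1 its adjusted p was 0.0745. Ier2, a nuclear protein of the same response, fell by 0.62 on the log2 scale (adjusted p = 0.0299), and its adjusted p was 0.108 without CB.EGFP replicate 4. Klf2, a Krüppel-like factor known from endothelium, had 17.8 to 25.8 against 27.5 to 39.4 CPM and did not pass (adjusted p = 0.0732).

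The genes that end the response were lower as well. Zfp36 encodes tristetraprolin, which destabilizes cytokine mRNAs, and had 29.5, 41.8, 34.2 and 36.4 CPM with the Syn1 vector against 101.3, 76.5, 93.3 and 97.6 CPM (log2 fold change −1.38, SE 0.115, adjusted p = 0.00031). The PBS livers held 31.4 to 52.5 CPM, and the AAV9.empty livers 36.4, 38.4, 69.6 and 91.2 CPM. Dusp1, Dusp5 and Dusp6 encode phosphatases of MAP kinases. They fell by 0.62 (adjusted p = 0.0118), 0.85 (adjusted p = 0.0202) and 0.47 (adjusted p = 0.0217) on the log2 scale. Dusp5 was at 7.35 to 9.04 CPM with the Syn1 vector, 12.5 to 17.7 with the CB.EGFP vector and 5.45 to 7.11 with PBS, so both vector groups lay above PBS. Without CB.EGFP replicate 4 the adjusted p was 0.0626 for Dusp1, 0.109 for Dusp5 and 0.115 for Dusp6. The remaining members of the list did not pass, from Klf6 at −0.34 (adjusted p = 0.152) to Myc at 0.35 (adjusted p = 0.207).

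**Figure D2:**
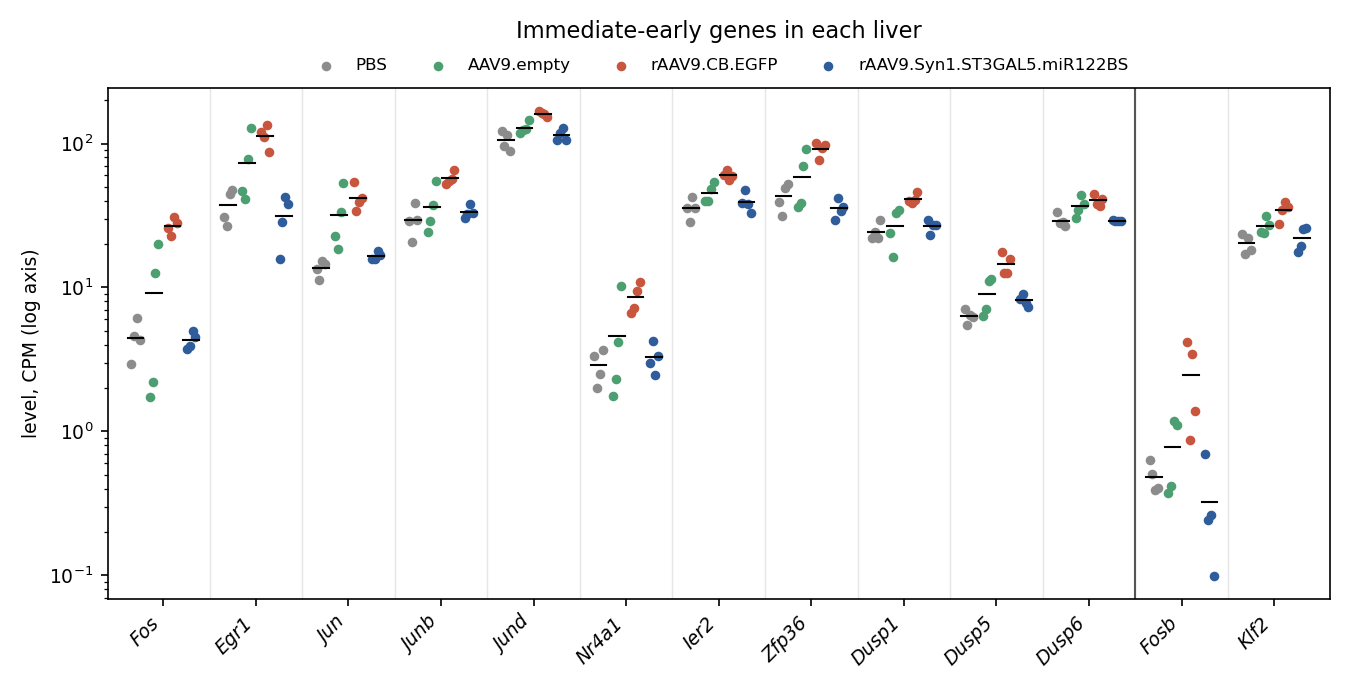
Level of 13 immediate-early genes in CPM on a log axis, 1 point per liver and a bar at the mean of 4 livers, in the order PBS, AAV9.empty, CB.EGFP and Syn1 vector; the 2 genes right of the dark line did not pass the adjusted p. For the 11 genes on the left every Syn1 liver lies below every CB.EGFP liver, and AAV9.empty reaches from 1.73 to 20.2 CPM for Fos.

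Promoters of these genes are textbook targets of serum response factor, which binds the CArG box, and of CREB, which binds the cyclic AMP response element. RefSeq promoter windows on GRCm38.p6, from 250 bases before to 50 after the gene start, were at hand for 18 of the 22 tested genes, 9 of the 11 that fell and 9 of the others. Both strands were searched. Egr1 and Ier2, which also fell, had no window, and bases beyond the windows were not searched. The lack of a match thus says nothing of those genes or of sites further away. The core of the cyclic AMP response element, TGACGT, was found in 3 of the 9 that fell, in 1 of the 9 others and in 8.37% of 27025 promoters, or 12.5% of the 11035 that belong to tested genes. The CArG box was found in 2 of the 9, in 0 of the others and in 1.81% of all promoters (1.55% of those of tested genes). The AP-1 site TGAGTCA was found in 0 of the 18 and in 5.95% of all promoters (4.82% of those of tested genes). The matches say only that the letters occur in these windows. The 30 bases around each kind of match are shown for the genes that fell because these promoters belong to the group with the clearest difference. Capitals mark 1 match per line, lines read 5′ to 3′ on the strand named, and no matched stretch overlaps another kind. Dusp5 holds 2 CArG boxes end to end, and each has its own line with the other in lower case.
Fos, cyclic AMP response element core, chr12:85473812-85473841, plus strand: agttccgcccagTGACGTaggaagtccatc
Dusp1, cyclic AMP response element core, chr17:26508598-26508627, minus strand: cggtagggcgggTGACGTcaccgcccggtc
Dusp5, CArG box, chr19:53529053-53529082, plus strand: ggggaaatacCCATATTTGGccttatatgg
Dusp5, CArG box, chr19:53529063-53529092, plus strand: ccatatttggCCTTATATGGgcactcacgt
Dusp5, cyclic AMP response element core, chr19:53529077-53529106, minus strand: gtgcgcgtcctgTGACGTgagtgcccatat
Zfp36, CArG box, chr7:28379267-28379296, minus strand: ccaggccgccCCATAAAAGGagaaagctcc
The Fos match begins 66 bases before the gene start and the Zfp36 match 58 bases before it, and Fos, Dusp5 and Zfp36 fell by 2.65, 0.85 and 1.38 on the log2 scale.

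Outside that list, the 21 other genes that fell were a mixed set. Rgs1, a brake on G protein signalling known from leukocytes (chromosome 1, 144242296 to 144249242), had 1.23, 1.95, 2.74 and 1.54 CPM with the Syn1 vector and 8.57, 10.1, 11.2 and 11.9 CPM with the CB.EGFP vector, a log2 difference of −2.49 (SE 0.227, adjusted p = 0.00049). PBS livers had 1.26 to 3.07 CPM, and AAV9.empty livers 0.841, 0.889, 4.70 and 8.84 CPM. Adrb1, the beta-1 adrenergic receptor, had 0.789 to 1.14 against 2.63 to 3.64 CPM (log2 fold change −1.71, adjusted p = 0.0118), and Ccn1, a matricellular protein, 5.74 to 7.26 against 10.2 to 16.95 CPM (log2 fold change −1.11, adjusted p = 0.0118). Both missed the threshold without Syn1 replicate 1, at an adjusted p of 0.0635. Cebpb, a transcription factor of the acute phase and the integrated stress response, fell by 0.90 (adjusted p = 0.000726), from 61.8 to 80.8 CPM with the CB.EGFP vector to 35.9 to 39.5 CPM, and it passed in each fit without 1 liver. The TGF-beta-induced factor Klf10 fell by 0.59 (adjusted p = 0.00994). Gm10222, a pseudogene with 100% of its 31-base words in mt-Nd4l, fell by 0.72 (adjusted p = 0.00994), and its counts cannot be told apart from those of mitochondrial RNA. With limma the Gm10222 log2 fold change was −0.14 on log2(TPM + 1) and did not pass (adjusted p = 0.423, and 3.55e-10 to 0.737 over 15 settings).

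For the 32 genes that fell as a whole, the CB.EGFP livers lay wholly above the PBS livers in 23 (6.17% of all genes) and wholly below them in 2 (4.75%), and the Syn1 livers lay above PBS in 2 (5.66%) and below it in 7 (5.73%). These genes were chosen on the livers of both vectors, so these counts are a description and no independent comparison. The AAV9.empty livers do not enter these counts. Their replicate 4 lay within the CB.EGFP range for Rgs1, Egr1, Jun, Zfp36 and Txnip, and below that range for Fos and Cebpb. Txnip, a glucose-responsive inhibitor of thioredoxin, belonged to the 23, with 85.6, 130, 119 and 132 CPM with the Syn1 vector, 189, 233, 241 and 264 CPM with the CB.EGFP vector and 88.2 to 183 CPM with PBS (log2 fold change −0.99, SE 0.140, adjusted p = 0.0118). The AAV9.empty livers had 99.7, 92.2, 174 and 230 CPM of Txnip, and without CB.EGFP replicate 4 its adjusted p was 0.0582. Slc39a4, a zinc importer, fell by 0.76 (adjusted p = 0.0111). It stood at 51.1, 55.7, 68.3 and 47.4 CPM in the AAV9.empty livers, against 53.7 to 62.7 CPM with the CB.EGFP vector. Also among the 23, outside the immediate-early list, were Chka, the choline kinase of phosphatidylcholine synthesis (−0.83), Irf2bp2, a transcriptional corepressor (−0.42), Fam171a2 (−0.73) and Cd14, the lipopolysaccharide co-receptor of macrophages (−0.85), each with an adjusted p between 0.0339 and 0.0478. Rnd3, an atypical small GTPase, fell by 0.57 (adjusted p = 0.0452) and overlapped PBS.

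A smaller set was low with the Syn1 vector against PBS too. Ces3a, a carboxylesterase of the liver, had 65.5 to 83.8 CPM with the Syn1 vector, 99.1 to 112 CPM with the CB.EGFP vector and 153 to 228 CPM with PBS (log2 fold change −0.54 between vectors, adjusted p = 0.0237). Both vector groups were thus below PBS, the Syn1 group further. The AAV9.empty livers had 176.5, 198.6, 145.1 and 101.5 CPM of Ces3a, the last within the CB.EGFP range. Cyp8b1, the sterol 12-alpha-hydroxylase that sets the share of cholic acid, was the only 1 of 18 bile acid genes that passed in edgeR, at 105, 121, 112 and 145 CPM against 211, 154, 203 and 187 CPM (log2 fold change −0.65, SE 0.120, adjusted p = 0.0478). DESeq2 called 2 of the 18 lower, Cyp8b1 and the exporter Abcc3, and limma on log2 TPM 0. Ugt3a2, a glycosyltransferase, fell by 0.75 (adjusted p = 0.0391) and lay below PBS, while Akr1c20, an aldo-keto reductase, fell by 0.79 (adjusted p = 0.0391) and overlapped PBS. These 4 calls were lost in 5 to 7 of the 8 fits without 1 liver. Ces3a shares 34.9% of its 31-base words with Ces3b and Ugt3a2 15.2% with other genes, chiefly Ugt3a1. Other called genes share words with other transcripts as well: Dusp5 21.2%, Irf2bp2 20.4%, Cebpb 19.6%, Zfas1 19.1%, Ndufb4 19.1% and Txnip 17.4%.

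Genes of cholesterol synthesis and uptake under SREBP2 were the list with the next lowest median. SREBP2 is the transcription factor that raises these genes when sterols in the cell are scarce. Of 24 genes tested, 1 passed and was lower, 0 were higher, and the median was −0.50 on the log2 scale. DESeq2 called 15 of them lower, among 243 lower genes in all, and limma on log2 TPM 1. At an unadjusted p under 0.05, 20 of the 24 were lower, against 7.60% of all genes, and 23 of 24 fold changes were below 0, against 50.2%. Summed over the list, the Syn1 livers held 1850, 2086, 2242 and 2004 CPM and the CB.EGFP livers 3023, 2603, 2534 and 2694 CPM. PBS livers held 2929, 2491, 2640 and 2699 CPM, so here the CB.EGFP livers overlapped PBS and the Syn1 livers lay below it. Gene by gene, the Syn1 livers lay wholly below PBS in 13 of 24 (5.73% of all genes) and the CB.EGFP livers in 0 (4.75%). The median of the list was −0.70 with replicates 1 and 4 alone and −0.36 over the livers with no count at Gm47283.

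Hmgcs1, the synthase at the start of the pathway, differed by −0.67 (95% interval −0.97 to −0.37, adjusted p = 0.0695), with 116 to 195 against 227 to 266 CPM. Insig1, which holds the SREBP complex in the endoplasmic reticulum, differed by −0.69 (adjusted p = 0.0732), but the groups overlapped, at 38.2 to 55.7 and 54.1 to 93.3 CPM. Acsl3, an acyl-CoA synthetase of lipid droplets outside the list, fell by 0.55 (adjusted p = 0.0339).

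Markers of Kupffer cells and monocytes, the macrophages of the liver, were low with the Syn1 vector. In bulk tissue fewer cells of a type and less RNA per cell cannot be told apart. Of 19 markers tested, 2 passed and were lower and 0 were higher, against 0.220% and 0.110% of all genes. All 19 fold changes were below 0 (median −0.27), against 50.2% of all genes. DESeq2 called 4 lower and limma on log2 TPM 3. The groups did not overlap in 10 of the 19, all lower, against 4.95% of all genes. Csf1r, the receptor for the macrophage growth factor, had 113, 110, 120 and 113 CPM with the Syn1 vector, 156, 156, 156 and 172 CPM with the CB.EGFP vector and 179 to 221 CPM with PBS (log2 fold change −0.49, SE 0.0711, adjusted p = 0.0126). Adgre1, which encodes F4/80, had 44.9, 39.8, 49.9 and 49.2 CPM, against 67.4, 67.4, 66.0 and 66.7 CPM with the CB.EGFP vector and 65.9 to 72.4 CPM with PBS (log2 fold change −0.54, SE 0.0817, adjusted p = 0.0170). Csf1r was thus below PBS in both vector groups and Adgre1 in the Syn1 group alone. Without CB.EGFP replicate 4 the adjusted p of Csf1r was 0.0699, and without Syn1 replicate 1 that of Adgre1 was 0.0694. Mpeg1, a pore-forming protein of macrophages, did not pass at −0.38 (interval −0.55 to −0.21, adjusted p = 0.0695), and neither did Cd5l, a secreted Kupffer cell protein, at −0.31 (adjusted p = 0.122). The sum of the markers was 1323, 1600, 1574 and 1520 CPM with the Syn1 vector and 1735, 1807, 1710 and 1992 CPM with the CB.EGFP vector. PBS livers held 1712 to 1920 CPM. The part of such cells in the differences of Rgs1, Cd14 and the other genes above was not tested.

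Sinusoidal endothelial markers were also low against the CB.EGFP vector, without a call in edgeR. Of 15 tested, 0 passed, and all 15 fold changes were below 0 (median −0.29), against 50.2% of all genes. At an unadjusted p under 0.05, 10 were lower, against 7.60% of all genes. DESeq2 called 4 of them lower, Cdh5, Flt4, Lyve1 and Maf, and limma on log2 TPM 0. Maf, an endothelial and macrophage transcription factor, had 34.6 to 42.7 against 47.7 to 55.2 CPM (adjusted p = 0.0689), Flt4, the VEGF-C receptor, 24.1 to 32.0 against 35.6 to 43.3 CPM (adjusted p = 0.0732) and Lyve1, a hyaluronan receptor, 36.9 to 49.0 against 52.5 to 63.0 CPM (adjusted p = 0.0840). The summed level of the 15 markers was 554 to 723 CPM with the Syn1 vector and 711 to 826 CPM with the CB.EGFP vector. PBS livers held 690 to 806 CPM and overlapped the Syn1 livers. The Syn1 livers lay below PBS for Maf (48.3 to 56.8 CPM) and Flt4 (33.8 to 41.1 CPM), but overlapped it for Lyve1 (38.1 to 48.5 CPM). Neutrophil markers had a median of −0.20, with 17 of 17 below 0 and 0 past the threshold in edgeR or DESeq2. Of the 17, 4 were lower at an unadjusted p under 0.05 (7.60% of all genes). Stellate cell and matrix genes had a median of −0.27 over 16, with 0 past it in edgeR and 1 higher and 1 lower in DESeq2. Hepatocyte proteins and transcription factors, by contrast, had a median of −0.03 over 36 genes, with 0 past the threshold in edgeR, 4 lower at an unadjusted p under 0.05 and 2 lower, Alb and Igf1, in DESeq2.

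**Figure D3:**
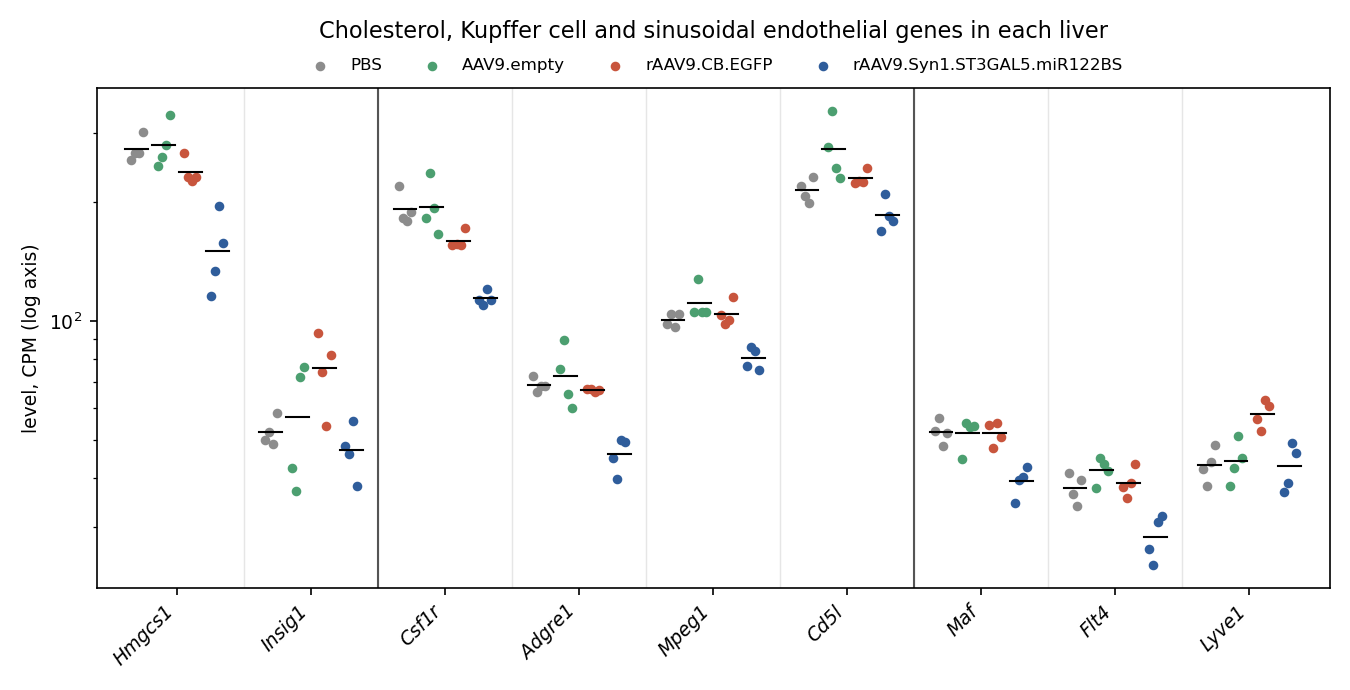
Level of 2 cholesterol genes, 4 Kupffer cell genes and 3 sinusoidal endothelial genes, separated by dark lines, in CPM on a log axis, 1 point per liver and a bar at the mean of 4 livers. Csf1r and Adgre1 passed the adjusted p, and the Syn1 livers, on the right of each gene, lie between 110 and 120 CPM for Csf1r against 156 to 172 CPM with the CB.EGFP vector.

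Among the 16 genes that rose, 4 reached 2-fold: Ccdc24, Mir17hg, Gm42047 and Gt(ROSA)26Sor. Mir17hg is the host transcript of the miR-17-92 cluster (chromosome 14, 115042879 to 115046727), which is known to promote proliferation. It had 12.05, 6.41, 10.2 and 7.99 CPM with the Syn1 vector against 3.03, 3.46, 2.99 and 4.48 CPM, a log2 difference of 1.39 (SE 0.214, adjusted p = 0.0196), and 4.41 to 7.98 CPM with PBS. The Syn1 livers overlapped PBS, and the CB.EGFP livers did too at 4.48 CPM. The AAV9.empty livers, at 2.93 to 4.59 CPM, overlapped the CB.EGFP livers and lay below the Syn1 livers. Without CB.EGFP replicate 1 its adjusted p was 0.0739. The mature microRNAs of the cluster were not measured by these libraries. Of 11 that lie within Mir17hg, 6 are shown, from RefSeq, because the transcript that rose is their precursor, with the seed (bases 2 to 8) in capitals and those that share a seed together.
mmu-miR-17-5p: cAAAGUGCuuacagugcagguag
mmu-miR-20a-5p: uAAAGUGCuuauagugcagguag
mmu-miR-18a-5p: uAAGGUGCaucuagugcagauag
mmu-miR-19a-3p: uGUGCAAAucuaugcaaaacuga
mmu-miR-19b-3p: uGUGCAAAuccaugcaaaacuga
mmu-miR-92a-3p: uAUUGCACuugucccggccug

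The other 3 need care. Gt(ROSA)26Sor, the non-coding Rosa26 transcript, had 9.60, 9.46, 8.57 and 6.30 CPM with the Syn1 vector against 4.37, 4.73, 3.50 and 4.19 CPM (log2 fold change 1.01, SE 0.170, adjusted p = 0.0299), and 6.36 to 7.29 CPM with PBS. The CB.EGFP livers all lay below the PBS livers, and the Syn1 livers lay on both sides of the PBS range, 3 above it and 1 below. The AAV9.empty livers, at 4.185 to 6.165 CPM, also all lay below the PBS livers. Gm42047, a long non-coding RNA on chromosome 8, had 327, 265, 191 and 372 CPM against 147, 122, 99.8 and 101.0 CPM (log2 fold change 1.29, SE 0.185, adjusted p = 0.0118), and both vector groups lay above PBS at 26.2 to 98.0 CPM. It shares 72.3% of its 31-base words with other transcripts, chiefly Gm48362. Ccdc24, at 1.10 to 2.78 against 0.309 to 0.560 CPM (log2 fold change 2.17, SE 0.363, adjusted p = 0.0295), shares 58.7% with other transcripts, chiefly the overlapping Slc6a9. It had 0.356 to 2.59 CPM with PBS and 0.486 to 1.19 CPM with empty capsids, which overlaps both vector groups. The CB.EGFP livers held only 6 to 10 counts of it. Without CB.EGFP replicate 4 the adjusted p was 0.117 for Ccdc24 and for Gt(ROSA)26Sor and 0.0700 for Gm42047.

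The 12 genes that rose by less than 2-fold included RNAs that carry small nucleolar RNAs, a histone variant and subunits of the respiratory chain. Zfas1 and 1110038B12Rik host small nucleolar RNAs in their introns. Zfas1 had 18.1, 19.0, 20.0 and 19.9 CPM with the Syn1 vector against 9.25, 12.1, 12.5 and 13.1 CPM (log2 fold change 0.71, SE 0.114, adjusted p = 0.0237), and 1110038B12Rik 21.8 to 24.5 against 13.2 to 15.4 CPM (log2 fold change 0.66, adjusted p = 0.00994). Both also lay wholly above PBS. H2aj, a variant of histone H2A, rose by 0.56 (adjusted p = 0.0111), from 88.9 to 105 CPM with the CB.EGFP vector to 139 to 155 CPM, with 75.5 to 85.2 CPM in PBS livers. Ndufb2 and Ndufb4, subunits of complex I, rose by 0.49 (adjusted p = 0.0291) and 0.44 (adjusted p = 0.0452), and Cox6b2, a subunit of complex IV, by 0.59 (adjusted p = 0.0391). Rpl9-ps6 rose by 0.96 (adjusted p = 0.0299) but shares 92.7% of its words, nearly all with Rpl9. Tab1, an adaptor of the kinase TAK1 (0.59), Ing5, a chromatin reader (0.48), Clec2d, a C-type lectin (0.93), and Kmt5c, a histone H4 methyltransferase (0.62), passed at an adjusted p of 0.0273 to 0.0391. Of these 12 genes, 1110038B12Rik alone passed in all 8 fits without 1 liver.

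For the 16 genes that rose, the Syn1 livers lay wholly above PBS in 10 (5.66% of all genes) and below it in 0 (5.73%), and the CB.EGFP livers above in 3 (6.17%) and below in 3 (4.75%). These genes too were chosen on the livers of both vectors, and the counts are a description. Atp8b5, a P4-type ATPase, was among the 3 above PBS in both groups. It had 6.18, 7.57, 5.47 and 7.94 CPM with the Syn1 vector, 3.03, 3.69, 3.92 and 3.47 CPM with the CB.EGFP vector and 0.135 to 0.404 CPM with PBS, and the vectors differed by 0.94 (SE 0.173, adjusted p = 0.0464). The AAV9.empty livers, at 0.0935 to 0.702 CPM, were near PBS, so the 2 groups with a vector genome stood apart from the 2 without one. Without CB.EGFP replicate 4 the difference between vectors had an adjusted p of 0.147.

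The p53 targets were high with both vectors. Of 34 tested, the CB.EGFP livers lay wholly above PBS in 23 and the Syn1 livers in 23, against 6.17% and 5.66% of all genes, and neither group lay below PBS in any. Both comparisons share the PBS livers. Between the vectors, 0 of 34 passed, with a median of 0.12. At an unadjusted p under 0.05, 10 were higher and 3 lower, against 6.50% and 7.60% of all genes. DESeq2 called 5 higher (Bax, Bbc3, Dcxr, Phlda3 and Psrc1) and 1 lower (Gdf15), and limma on log2 TPM 0. Cdkn1a, the cell cycle inhibitor p21, had 122, 180, 164 and 161 CPM with the Syn1 vector, 131, 131, 124 and 128 CPM with the CB.EGFP vector, 18.5 to 26.1 CPM with PBS and 24.9 to 31.3 CPM with empty capsids. The vectors differed by 0.29 (95% interval 0.05 to 0.52, adjusted p = 0.250). Dcxr, a carbonyl reductase (0.42, interval 0.24 to 0.59, adjusted p = 0.0610), Phlda3, an inhibitor of Akt (0.51, interval 0.27 to 0.75, adjusted p = 0.0732), and Bax, which opens the mitochondrial outer membrane (0.36, interval 0.19 to 0.53, adjusted p = 0.0732), came nearest to the threshold, as did Psrc1 (0.36, adjusted p = 0.0942). Gdf15, a stress hormone that p53 and ATF4 both induce, went the other way at −0.84 (interval −1.29 to −0.40, adjusted p = 0.102). Its groups did not overlap, at 8.80 to 15.8 CPM with the Syn1 vector and 18.1 to 33.7 CPM with the CB.EGFP vector, and both lay above PBS at 2.25 to 5.79 CPM. The AAV9.empty livers had 4.533, 2.877, 7.995 and 15 CPM of Gdf15, the last within the Syn1 range.

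**Figure D4:**
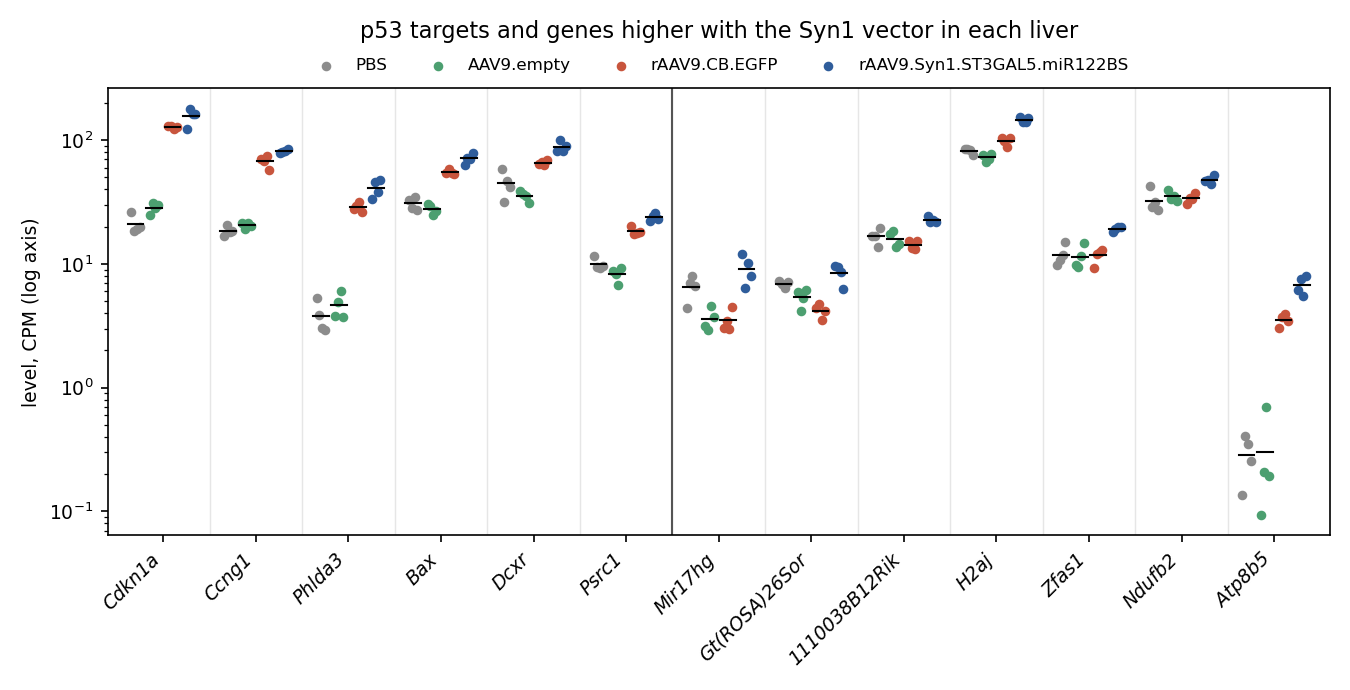
Level of 6 p53 targets, left of the dark line, and 7 genes that rose with the Syn1 vector, right of it, in CPM on a log axis, 1 point per liver and a bar at the mean of 4 livers. Cdkn1a lies at 122 to 180 CPM with the Syn1 vector and 124 to 131 CPM with the CB.EGFP vector, far above PBS at 18.5 to 26.1 CPM, and Atp8b5 shows the same step between livers with and without a vector genome.

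No gene of sphingolipid metabolism or of the miR-122 targets passed in edgeR. Mouse St3gal5, which makes the ganglioside GM3, had 180, 161, 190 and 182 CPM with the Syn1 vector and 195, 189, 180 and 172 CPM with the CB.EGFP vector, a difference of −0.05 (interval −0.22 to 0.12, adjusted p = 0.825). PBS livers had 181 to 194 CPM. Of 31 genes of glycosphingolipid metabolism 0 passed in edgeR (median −0.06), with 1 higher and 3 lower at an unadjusted p under 0.05 and 1 lower, Asah1, by DESeq2. The nearest was Asah1, the acid ceramidase, at −0.28 (interval −0.41 to −0.15, adjusted p = 0.0732), and Neu3, a plasma membrane sialidase, stood at 0.54 (adjusted p = 0.140). Of 31 miR-122 targets 0 passed in edgeR (median −0.07), and DESeq2 called 1 lower, Ccn2. At an unadjusted p under 0.05, 4 were higher and 6 lower, against 6.50% and 7.60% of all genes. The groups did not overlap for 2 higher and 7 lower members, against 3.94% and 4.95% of all genes. Ccn2, a matricellular protein, was the nearest at −1.06 (interval −1.56 to −0.56, adjusted p = 0.0732), and Slc7a1, the cationic amino acid transporter CAT1 known as a miR-122 target, stood at 0.32 (adjusted p = 0.202).

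No cytokine or interferon-stimulated gene passed between the vectors in edgeR. Of 17 cytokine and chemokine genes 0 passed in edgeR or DESeq2, and limma on log2 TPM called 1 lower, the chemokine Ccl9. At an unadjusted p under 0.05, 2 of the 17 were lower in edgeR (7.60% of all genes). Of 41 interferon-stimulated genes 0 passed in edgeR, DESeq2 or limma on log2 TPM. In edgeR 1 of the 41 was higher at an unadjusted p under 0.05 (6.50% of all genes). Tnf, which encodes the cytokine TNF, had 0.993 to 2.02 CPM with the Syn1 vector and 0.672 to 1.15 CPM with the CB.EGFP vector, a difference of 0.70 (interval −0.02 to 1.42, adjusted p = 0.367). Il1a, interleukin 1 alpha, differed by −0.41 (interval −0.79 to −0.03, adjusted p = 0.307) and Ccl2, a monocyte chemokine, by 0.38 (interval −0.46 to 1.22, adjusted p = 0.696). Ccl3 was under the filter for low counts, at 0.320 to 0.496 CPM against 0.231 to 0.771 CPM. Ddit3, the stress factor CHOP, differed by 0.41 (interval 0.02 to 0.80, adjusted p = 0.334). Gusb, a lysosomal enzyme used as a reference, differed by 0.04 (interval −0.15 to 0.22), a direction that turned on log2 TPM, and Tfrc, the transferrin receptor, by 0.30 (interval 0.03 to 0.58, adjusted p = 0.307). The intervals of Tnf and Ccl2 reach past a 2-fold difference.

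Over the 41 lists, 35 had no member past the threshold in edgeR, 6 had at least 1 lower member and 0 had a higher one. By DESeq2, 16 of the 41 had no member called, 22 had at least 1 lower and 8 at least 1 higher, and by limma on log2 TPM 33 had none, 8 a lower one and 0 a higher one. The 6 in edgeR were the immediate-early genes with 11, Kupffer cells and monocytes with 2, and 1 each in cholesterol synthesis, bile acids (Cyp8b1), ATF4 and CHOP targets (Cebpb) and glucose production and fasting (Txnip). Cell cycle genes had the highest median of the lists with 5 or more tested members, 0.16 over 34 genes. Of these, 29 were above 0 (49.8% of all genes). At an unadjusted p under 0.05, 9 were higher (6.50%) and 1 lower (7.60%). Pcna, the clamp of DNA replication, differed by 0.33 (interval 0.14 to 0.52, adjusted p = 0.131). Erythroid genes had a median of 0.11 over 17, and the nearest was Epor, the erythropoietin receptor, at 0.42 (interval 0.25 to 0.59, adjusted p = 0.0555). Summed, the erythroid genes ran from 27590 to 55030 CPM with the Syn1 vector and from 40630 to 48640 with the CB.EGFP vector, so this sum spread more widely among the Syn1 livers. With a score of the erythroid genes in the model, 352 genes passed in place of 48.

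**Figure D5:**
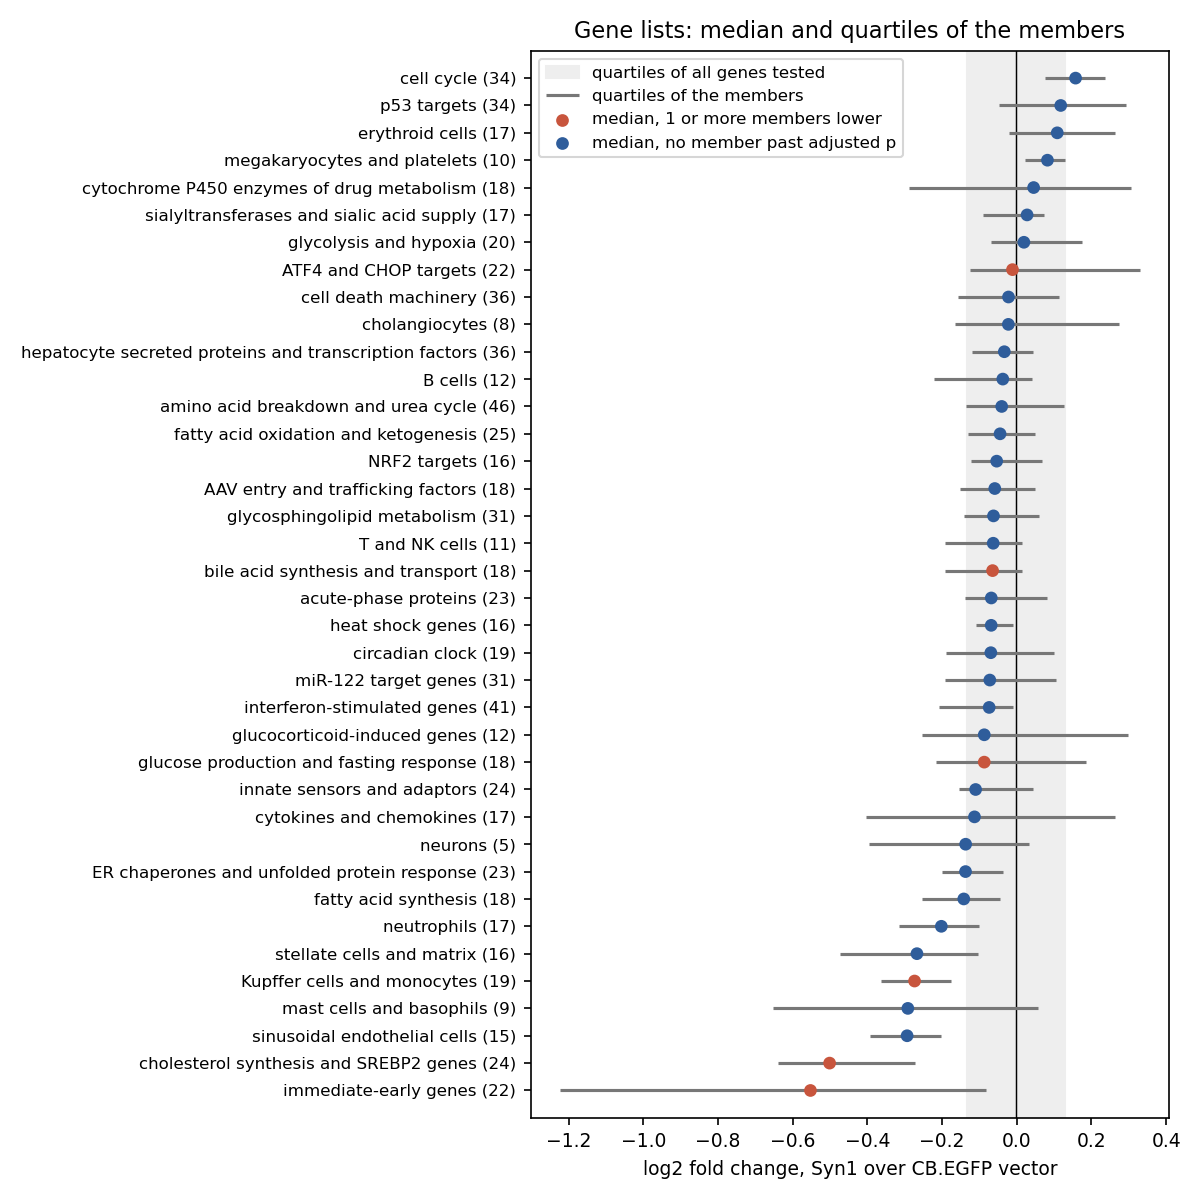
Median (point) and quartiles (line) of the log2 fold change, Syn1 over CB.EGFP vector, for each gene list with 5 or more tested members, whose number stands in brackets; the grey band holds the quartiles of all genes tested, −0.13 to 0.13. Immediate-early genes (median −0.55) and cholesterol genes (median −0.50) lie furthest from 0 of the 11 of 38 medians outside the band, 10 below and 1 above it, and red points mark the 6 lists with at least 1 lower member.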

How the data were processed

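Livers from 8 pups were compared, 4 per vector, and the members and gene lists were chosen with earlier results of these data known. Per the labels, the authors trimmed reads with Trimmomatic, aligned them with STAR to mm10 and counted them with RSEM. The authors deposited expected counts, which share out reads that match several genes and are not scaled for depth, and TPM, which are corrected for transcript length. Of the expected counts 5.69% were not whole and were rounded. Groups were compared in R 4.3.3 with edgeR 4.0.16 (TMM, filterByExpr, quasi-likelihood F-test, two-sided) on the 8 libraries, with Benjamini-Hochberg adjustment over 14528 genes. Calls needed an adjusted p no higher than 0.05, and changed genes a 2-fold difference as well. Levels are CPM scaled by TMM over all 22 libraries and carry counting error beside the spread of livers. Positions come from GENCODE release 21, where 55092 of 55291 names were found.

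The genes named were the 12 largest in each direction past both thresholds with groups that do not overlap and 1 CPM in the higher group, filled up by smallest p; Tnf, Il1a, Ccl2, Ccl3, Ddit3, St3gal5, Gusb and Tfrc; the 4 members of a list with the smallest adjusted p, and others beside their count; and Gm47283, Erdr1 and Mid1. Other called genes, Cym, Atp4a and the stomach genes were named after their values were seen. Some genes that these rules name are not reported here. Of 871 listed genes 870 were found, 5 under a newer symbol. No column of a sample outside the 22 was used. Replicates were checked for duplicates by a chi-square test of counts (6.78 to 43.8 per degree of freedom) and none was found. On simulated counts for this comparison (14353 genes), the test recovered 83% of 100 genes changed 2-fold and 96.0% of 99 changed 4-fold, with 9 unchanged genes called. The changed genes were drawn from those with a mean of at least 1 CPM. The simulation used the dispersions fitted here and held no liver with genes of other organs, so these rates do not cover all genes tested. Sharing of 31-base words was counted over all annotated transcripts, on both strands. Alternatives were DESeq2 1.42.0, its size factors, other filters, all 6 groups, a replicate block, robust dispersion, limma 3.58.1 on log2 TPM with a pseudocount of 1 or 0.1, an erythroid score or Gm47283 as covariate and each library left out. Alternatives added after the data were seen were the fits without replicate 3, with replicates 1 and 4 alone, and over the livers with no count at Gm47283.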

Additional observations from a re-analysis of the deposited data

Results flagged for a closer look

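In 11 of the groups of 4 livers behind the genes examined one by one, 1 liver lay further from the other 3 than the 95% critical value of Dixon's test allows. Chance flags about 1 in 20 groups, and 180 groups were tested. Cym and Atp4a were named after their values were seen, and earlier results of these data singled out Gm47283, Erdr1 and Mid1. The chance rate does not apply to the flags of these genes. Replicate 2 of the Syn1 vector was high for Cym, at 2008 CPM against 2.78 to 4.64, for Atp4a, a subunit of the gastric proton pump, at 56.4 CPM against 1.39 to 1.53, and low for Klf6, at 14.4 CPM. Replicate 3 of the CB.EGFP vector was high for Gm47283, at 18.3 CPM where the other 3 livers had no count, for Erdr1, at 2.16 CPM where the others had none, and for Mid1, at 10.51 CPM against 2.86 to 3.18, and was low for Gusb, at 49.3 CPM. Replicate 4 of the CB.EGFP vector was highest for Csf1r, at 172 CPM, and for Cd5l, at 244 CPM. Replicate 1 of the CB.EGFP vector was highest for Hmgcs1, at 266 CPM, and replicate 4 of the Syn1 vector lowest for Gm10222, at 95.6 CPM.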

How the results depend on the processing

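The settings moved how many genes passed more than which way they went. Against 48 genes past the adjusted p, DESeq2 gave 386, no filter 93, an erythroid score as covariate 352, Gm47283 as covariate 28, limma on log2(TPM + 1) without a filter 20, and the fits chosen after seeing the data 27 (no replicate 3), 4 (replicates 1 and 4) and 105 (livers with no count at Gm47283). Against 12 changed genes the values were 24 with DESeq2, 31 with the erythroid score, 4 with limma without a filter, 4 with replicates 1 and 4 and 22 with no count at Gm47283. Against 11 lower immediate-early genes they were 5 with all 6 groups in one fit, 4 with limma without a filter, 5 without replicate 3 and 3 with replicates 1 and 4. Leaving out 1 library gave 14 to 111, 5 to 21 and 5 to 11. DESeq2 kept 47 of the 48 genes, the fit over 6 groups 22 and limma without a filter 13. Why these counts move was not tested.

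With the replicate number as a block, 67 genes passed, 15 were changed and 13 immediate-early genes were lower, and 40 of the 48 were among the 67. The pairing was not established. Same-numbered livers correlated at 0.143, 0.0321, 0.301 and 0.0198. Syn1 replicates 1, 3 and 4 each correlated best with the CB.EGFP replicate of the same number. For replicate 4 the next value was near, at 0.00594. Syn1 replicate 2 correlated best with CB.EGFP replicate 4 (0.101).

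Directions turned for 6 named genes, none of them called. Leaving out 1 library took Cym from −0.35 (without Syn1 replicate 2) to 7.08 and Atp4a from −0.86 (without the same liver) to 2.91. Cym stood at −0.53 with no count at Gm47283 and −0.43 with replicates 1 and 4, and Atp4a at −0.82 and −1.03. Mid1 (−0.11) went to 0.018 with the replicate block, ran from −0.42 to 0.59 with 1 library left out, and was 0.86 without replicate 3 of both groups and 0.62 with replicates 1 and 4. Gusb went to −0.0559 on log2(TPM + 1), with or without the filter, and −0.0581 on log2(TPM + 0.1), ran from −0.0088 to 0.11 with 1 library left out, and was −0.12 with no count at Gm47283. St3gal5 went to 0.0124 there, and Ccl2 to −0.28 with replicates 1 and 4. The median of all genes moved by under 0.1 in every setting.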

Other observations

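Families outside the lists, chosen after values were seen and so without a test, had medians above 0 on the log2 scale, Syn1 over CB.EGFP vector. Of 79 cytosolic ribosomal protein genes, 76 had a fold change above 0 (49.8% of all genes, median 0.18), 39 were higher at an unadjusted p under 0.05 (6.50%) and 0 passed (0.110% higher). Their summed level was 40620 to 50450 CPM with the Syn1 vector, 37160 to 39540 with the CB.EGFP vector and 32210 to 39180 with PBS. Complex I subunits had a median of 0.10 over 47 genes (2 called), complex IV subunits 0.21 over 13 (1 called), mitochondrial ribosomal proteins 0.06 over 78 (0 called) and the small nucleolar RNA host genes Gas5, Zfas1 and those named Snhg, which leaves out 1110038B12Rik, 0.32 over 17 (1 called, Zfas1). Many of these transcripts are short. Over all protein-coding genes in 5 bins of transcript length, the median log2 fold change ran from 0.05 in the shortest to −0.05 in the longest, and the part of length in the family medians was not tested.

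Gm47283, annotated on chromosome Y (90784738 to 90816464 in GRCm38), had 21.6, 31.8, 0 and 0 CPM in the 4 Syn1 livers, 0, 0, 18.3 and 0 CPM in the 4 CB.EGFP livers and 14.7 to 22 CPM with PBS. Erdr1 followed the same livers, at 5.331, 5.495, 0 and 0 CPM and at 0, 0, 2.16 and 0 CPM. Both were under the filter for low counts.

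Of the stomach genes, Gkn1 had 94.8 CPM, Gkn2 80.5 CPM, Tff1 161 CPM and Pgc 60.7 CPM in Syn1 replicate 2, and Gkn1 and Gkn2 had no count in the other 7 livers. Ctse, also a stomach gene, stood at 104 to 141 CPM in all 8.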
